A study of Caenorhabditis elegans with 2 samples.

Results

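The tRNA genes of the X chromosome of Caenorhabditis elegans were taken as all genes of biotype tRNA on X in the Ensembl annotation of WBcel235, release 115. There were 276 of them, among 612 nuclear tRNA genes and 46890 nuclear genes of every kind. The other 336 nuclear tRNA genes lay on the autosomes. They were examined in chromatin immunoprecipitation sequencing (ChIP-seq) of SPTF-2, a zinc finger protein of the Sp family, tagged with eGFP and pulled down with an antibody to GFP. Strain OP769 carries the mutation unc-119(tm4063) and the transgene wgls769, which holds sptf-2::TY1::EGFP::3xFLAG and the rescue marker unc-119(+), so every sample shared the mutation, the rescue and the tagged protein. Whole worms of mixed sex were collected as young adults at an age of 64.5 h, in 1 group of 2 biological replicates, after synchronization by bleaching and starvation as L1 larvae. Whole worms mix all tissues, the labels give no copy number for the transgene, and no untagged strain was analysed here. Chromatin was sonicated to fragments of 200 to 800 bp.

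A tRNA gene is transcribed by RNA polymerase III from a promoter that lies inside the gene. The factor TFIIIC binds an A box near the start and a B box farther along, and then places TFIIIB just before the start, where the polymerase is recruited. Transcription ends at a run of T after the gene. Worms, like other animals, carry many copies of each tRNA gene, often identical in sequence, and in C. elegans a large share of them lie on X.

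The sequences of the strongest members and of members of the same isotypes with no summit in any list are shown because the results turn on where the summits fall relative to the gene. Each is the gene with the 60 bases before its start, 5′ to 3′ on the gene's strand, from the RefSeq genome sequence of WBcel235 (the same assembly as ce11). Capitals inside the gene mark the A box core (TGGCNNAGT or TAGCNNAGT) or the B box core (GGTTCGA), and capitals before the gene mark the word GAGAGA. The first 5 belong to the strongest 4 summits. F15G9.t1 (alanine) is at X:9743529-9743660, plus strand, and F15G9.t2 (alanine) at X:9743687-9743818, plus strand. T07H6.t2 (alanine) is at X:6292278-6292409, minus strand, E03E2.t3 (lysine) at X:5713592-5713724, plus strand, and R01H5.t1 (threonine) at X:12563728-12563859, plus strand. The last 3 had no summit in any list. F43E12.t1 (threonine) is at X:7176983-7177114, minus strand, R04D3.t1 (threonine) at X:13293132-13293263, plus strand, and K11E4.t2 (lysine) at X:13716433-13716565, plus strand.
F15G9.t1: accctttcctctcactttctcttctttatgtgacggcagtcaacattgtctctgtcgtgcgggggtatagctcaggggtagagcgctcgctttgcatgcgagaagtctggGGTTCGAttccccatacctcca
F15G9.t2: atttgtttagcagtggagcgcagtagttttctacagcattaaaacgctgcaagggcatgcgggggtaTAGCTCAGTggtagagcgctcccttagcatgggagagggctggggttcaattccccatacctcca
T07H6.t2: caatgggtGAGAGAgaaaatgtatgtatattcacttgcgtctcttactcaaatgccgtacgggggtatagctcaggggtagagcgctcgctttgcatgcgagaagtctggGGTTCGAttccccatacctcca
E03E2.t3: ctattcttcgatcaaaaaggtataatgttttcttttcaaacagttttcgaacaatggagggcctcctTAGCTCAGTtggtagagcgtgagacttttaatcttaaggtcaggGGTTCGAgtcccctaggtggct
R01H5.t1: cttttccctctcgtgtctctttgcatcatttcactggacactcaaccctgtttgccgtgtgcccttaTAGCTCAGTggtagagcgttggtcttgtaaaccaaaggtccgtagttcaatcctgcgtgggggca
F43E12.t1: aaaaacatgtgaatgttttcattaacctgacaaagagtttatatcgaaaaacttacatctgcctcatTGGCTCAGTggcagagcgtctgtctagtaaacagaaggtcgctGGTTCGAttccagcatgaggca
R04D3.t1: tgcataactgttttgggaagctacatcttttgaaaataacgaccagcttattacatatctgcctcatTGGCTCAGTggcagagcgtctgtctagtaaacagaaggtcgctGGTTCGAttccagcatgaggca
K11E4.t2: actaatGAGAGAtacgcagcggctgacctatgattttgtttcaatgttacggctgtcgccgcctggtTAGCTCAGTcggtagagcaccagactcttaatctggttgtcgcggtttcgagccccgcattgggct

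The genes F15G9.t1 and T07H6.t2 have the same sequence from start to end, and so do F43E12.t1 and R04D3.t1. The A box core, where these genes held it, began at base 8 of the gene, and the B box core at base 51 or 52. Both threonine genes without a summit held both box words, while R01H5.t1 held the A box word alone. The words are strict forms of the boxes, and 52 of 276 X tRNA genes (18.8%) held both. A gene without a word may still hold a variant of that box. The GAGAGA word stood before T07H6.t2, which had a strong summit, and before K11E4.t2, which had none.

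Most tRNA genes on X had a summit beside them. Each gene was given the strongest summit within 200 bp of its start in each deposited list. In the pooled list, called on both replicates together, 210 of 276 genes had one (76.1%, exact 95% interval 70.6 to 81.0), where 14.3% of all nuclear genes did. In the list of replicate 1 the count was 203 (73.6%, 67.9 to 78.7), beside 14.3% of all genes, and in that of replicate 2 it was 200 (72.5%, 66.8 to 77.6), beside 13.9%. Both replicate lists held a summit at 177 genes (64.1%, 58.2 to 69.8), where 6.11% of all genes had both. The optimal list, which the authors thresholded on reproducibility between replicates and which held the strongest peaks of the pooled list, had a summit at 60 genes (21.7%, 17.0 to 27.1), beside 0.851% of all genes. These intervals cover counting error over genes only, and neighbouring genes can share a summit.

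The replicate lists disagreed on some members. A summit was present in replicate 1 alone at 26 genes and in replicate 2 alone at 23, and 50 genes had none in any list. Every gene with a pooled summit also had a summit in at least a replicate's own list. F42G10.t1, an arginine tRNA gene in an intron, was the sole member with a summit in both replicate lists and none in the pooled list (it is named for this after its values were seen). Of the 66 genes without a pooled summit, 30 had the nearest summit within 500 bp. The distance over these 66 ran from 207 to 9246 bp, with a median of 598 bp.

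Positions within 200 bp of a pooled summit made up 13.0% of the bases of X. Protein-coding genes on X had a pooled summit within 200 bp of the start in 462 of 2731 cases (16.9%, 15.5 to 18.4) and snoRNA genes on X, whose RNAs guide the modification of other RNAs, in 8 of 33 (24.2%, 11.1 to 42.3). Genes annotated as ncRNA on X had one in 778 of 2520 cases (30.9%). Over all chromosomes, snoRNA genes had a pooled summit in 158 of 346 cases (45.7%) and an optimal one in 57 (16.5%). Genes of small nuclear RNAs had 61 of 129 (47.3%) and 13 (10.1%). The autosomal tRNA genes stood at 247 of 336 (73.5%, 68.5 to 78.2), at 185 in both replicates (55.1%, 49.6 to 60.5) and at 55 in the optimal list (16.4%, 12.6 to 20.8). The intervals of X and of the autosomes overlapped in the pooled and optimal lists and in both replicates together, and the difference was not tested.

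The strongest peaks of X lay largely at tRNA genes. A tRNA gene start was within 200 bp of the summit for 9 of the 10 strongest pooled peaks of X, 32 of the strongest 50 and 55 of the strongest 100. Over all 5929 pooled peaks of X it was 203 (3.42%). Of the 99 optimal peaks on X, 54 were the summits of tRNA genes (54.5%). The signal, a score on the peak caller's own scale that was compared only within a list, had a median of 72.4 over the 210 genes (95% interval of the median 67.2 to 75, range 30.1 to 255). The median was 66.2 over autosomal tRNA genes with a summit, and 37.6 over all pooled peaks of X. In replicate 1 the median was 41.7 at X tRNA genes and 22.7 over all peaks of X, and in replicate 2 it was 33.7 and 20.8.

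The strongest summit of X lay between the 2 alanine tRNA genes F15G9.t1 (WBGene00014333, X:9743589-9743660) and F15G9.t2 (WBGene00014334, X:9743747-9743818), in an intron of him-4. The gene him-4 encodes hemicentin, an extracellular matrix protein. Its signal was 255 in the pooled list (rank 11 of 30000), with 134 in replicate 1 (rank 14) and 120.3 in replicate 2 (rank 13), so its rank was close in both. The summit, at 9743697, was 108 bp after the start of the first gene and 50 bp before that of the second, so it cannot be assigned to either.

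T07H6.t2, an alanine gene between coding genes (WBGene00023133), had a signal of 192 in the pooled list (rank 24), with 74.9 in replicate 1 (rank 99) and 107 in replicate 2 (rank 16). The lysine gene E03E2.t3 (WBGene00022976) followed at 176 in the pooled list (rank 31), with 101 in replicate 1 and 72.8 in replicate 2. The threonine gene R01H5.t1 (WBGene00014474) had 173 in the pooled list (rank 33), with 83.0 in replicate 1 and 89.5 in replicate 2. All 3 ranked among the strongest 100 peaks of each list, and their summits fell 2, 15 and 60 bp after the start, inside the gene.

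R04D3.t2, for valine, had 163 (pooled), 85.6 (replicate 1) and 77.2 (replicate 2). C04A11.t1, for leucine, stood at 158, 79.8 and 73.4 in the same order. These genes also ranked among the strongest 100 in each list. C28G1.t1, for glutamate, was the sole X tRNA gene that overlapped an exon of a coding gene (C28G1.2), and had a signal of 151 in the pooled list, with 81.8 in replicate 1 and 63.4 in replicate 2. F43C9.t1, a second lysine gene, in an intron of F43C9.2, had 150.3 in the pooled list and 92.9 in replicate 1 (rank 38) but 46.2 in replicate 2 (rank 418). The replicates therefore ranked this gene far apart.

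Y59E1B.t2, for proline, had 143 in the pooled list, with 73.7 in replicate 1 and 71.9 in replicate 2. H08J11.t3, for glutamine, lay in an intron of ajm-1, which encodes a protein of epithelial junctions. Its signals were 141 in the pooled list, with 87.8 in replicate 1 and 52.1 in replicate 2. M02F4.t2, for glutamate, and M02F4.t1, for glycine, shared a summit of 137 in the pooled list, with 85.8 in replicate 1 and 55.1 in replicate 2. That summit was 133 bp before the start of M02F4.t2 and 16 bp after the start of M02F4.t1.

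The weakest members with a pooled summit each appeared in the list of a single replicate. F59C12.t3, for valine, had a pooled signal of 30.9 (rank 24156) and a summit in replicate 1 alone. C28G1.t5, for which RefSeq gives no isotype, had 30.5 and F56F10.t1, for tyrosine, 30.1, both with a summit in replicate 2 alone. At the edge of the optimal list, the last member inside was the methionine gene C02F12.t1 with a pooled signal of 90.5 (rank 403), and the first outside was the glutamate gene C39D10.t2 with 90.2 (rank 413).

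Among the summits within 200 bp of a gene start, most lay within 100 bp of it. The window is symmetric about the start, so a median near the start follows in part from the rule. Counted along transcription, the pooled summit lay at a median of 19.5 bp after the gene start (95% interval of the median 13 to 34, quartiles -20.5 and 62.8), and the median gene was 72 bp long. Of 210 summits, 95 fell inside the gene (45.2%), 74 before its start (35.2%) and 41 after its end (19.5%). Within 100 bp of the start there were 171 (81.4%). The median was 23 bp in replicate 1, 11 bp in replicate 2 and 22 bp for the 60 genes of the optimal list. It was 22 bp for autosomal tRNA genes in the pooled list. In nearly all peaks of the pooled and replicate lists the summit was the middle of a peak of fixed width, 376 bp in the pooled list, and the sheared fragments were longer than a tRNA gene. The position within a gene is therefore coarser than its bp value.

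**Figure D1:**
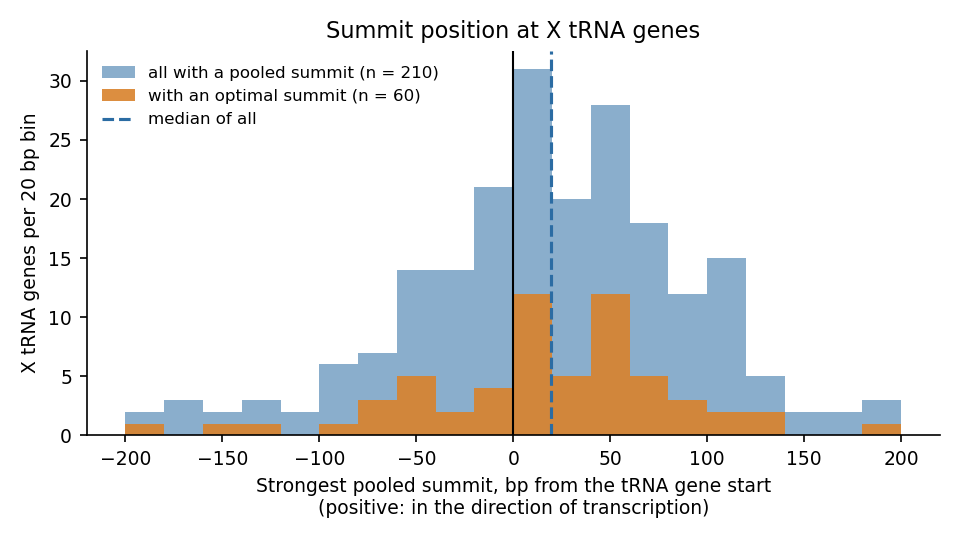
Histogram of the distance in bp from the start of each X tRNA gene to its strongest pooled summit, positive along transcription, in bins of 20 bp for all 210 genes with a summit and for the 60 with an optimal summit. The counts are highest near the start and inside the gene, with the median of all genes at 19.5 bp (dashed).

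Summits that served more than 1 tRNA gene were counted apart. Such a summit must lie within 200 bp of each start it serves. Its position relative to a gene therefore depends in part on how the genes are arranged. At 174 genes the summit belonged to no other tRNA gene, and its median position was 29 bp after the start, with 92 inside the gene. At the 36 genes that shared a summit with a neighbour the median was 55.5 bp before the start (-55.5 bp), with 3 inside the gene. The 177 genes with a summit in both replicates had those summits at a median distance of 37 bp from each other, and 148 of them (83.6%) within 100 bp.

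The replicates ordered the genes differently. Over the 177 genes with a summit in both lists, the log2 signals had a Pearson correlation of 0.51 and the ranks a Spearman correlation of 0.47, given as a description across genes that share summits, the control alignment and near-identical sequences. It was 0.53 and 0.51 over 185 autosomal tRNA genes. The rank of a gene in its own list differed between replicates by a median factor of 3.65, and by more than 10-fold at 44 genes. The phenylalanine gene T28B4.t1 had a signal of 17.0 in replicate 1 (rank 29453) and 49.5 in replicate 2 (rank 308). The tryptophan gene sup-7, known for its amber suppressor alleles, stood at 73.3 in replicate 1 (rank 107) and 28.3 in replicate 2 (rank 4804), and its pooled signal was 103. Of the 60 genes with an optimal summit, 58 had a summit in both replicate lists and 32 were in the top of both lists when each was shortened to its strongest peaks, as many as the optimal list holds. A further 16 were in the top of replicate 1 alone, 10 in replicate 2 alone and 2 in neither.

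**Figure D2:**
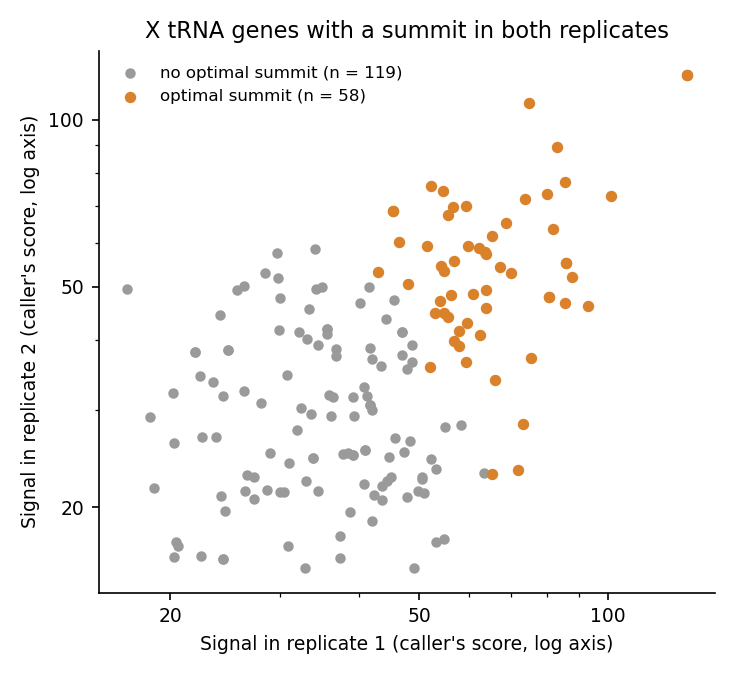
Signal in replicate 1 (x) and in replicate 2 (y), both on log axes in the caller's score, for the 177 X tRNA genes with a summit in both lists. The 58 genes with an optimal summit (orange) mostly lie to the upper right, some of them low in replicate 2. Within them the Pearson correlation of log2 signals was 0.30 and the Spearman correlation 0.13. These genes are the strongest of the list pooled from the same replicates, so both values are not comparable with those over all 177 genes.

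The share with a summit varied by isotype, the amino acid a tRNA carries, in groups of 5 to 27 genes. All 13 alanine genes on X had a pooled summit (interval 75.3 to 100), and 13 and 11 had one in replicates 1 and 2. Of the 13 genes, 10 were in the optimal list, and the median pooled signal was 108. Their pooled signals ran from 36.4 at K02A4.t2, which has a sequence of its own, to 255. At the other end, 4 of 9 histidine genes (44.4%, 13.7 to 78.8), 3 of 6 asparagine genes, 3 of 6 phenylalanine genes and 14 of 27 arginine genes (51.9%, 31.9 to 71.3) had a pooled summit. In replicate 1 alone the counts were 4 for histidine, 5 for asparagine, 3 for phenylalanine and 18 for arginine, and in replicate 2 they were 4, 3, 2 and 15, so the place of asparagine among the low shares rests on the pooled and replicate 2 lists. No phenylalanine gene on X was in the optimal list, and its strongest, T28B4.t1, had a pooled signal of 59.0. With groups this small most intervals of the isotypes overlapped. On the autosomes 17 of 21 alanine, 5 of 11 histidine, 10 of 14 asparagine, 4 of 8 phenylalanine and 15 of 17 arginine genes had a pooled summit.

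Proline, valine and aspartate genes had high shares on X in the pooled list, with 18 of 20, 13 of 14 and 11 of 12. The counts were 18, 10 and 12 in replicate 1, and 19, 12 and 10 in replicate 2. In replicate 1 the valine share was 71.4%, below the 73.6% of all X tRNA genes. The same isotypes had 12 of 22, 14 of 17 and 12 of 15 on the autosomes in the pooled list. Valine had 1 gene in the optimal list, R04D3.t2 at 163, while the median over its 13 genes with a summit was 55.7. Lysine had 15 of 18 genes with a summit and 6 in the optimal list, threonine 12 of 14 and 5, and cysteine 6 of 7 and 4. Cysteine's strongest gene was F42D1.t1 at 126, with 59.3 in replicate 1 and 69.9 in replicate 2.

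The remaining isotypes lay between these in the pooled list. Leucine had 14 of 17 genes with a summit, glycine 17 of 20, methionine 7 of 8, tryptophan 4 of 5 and serine 14 of 18. Tyrosine had 6 of 8, isoleucine 9 of 13, glutamine 10 of 15 and glutamate 15 of 23. In the same order the counts were 4, 6, 9 and 14 in replicate 1, and 4, 10, 8 and 14 in replicate 2. Both replicate lists held a summit at 2 of the 8 tyrosine genes. The strongest tyrosine gene was R11.t1 with a pooled signal of 135, while the median of its isotype was 39.6. Aspartate's T14F9.t1 also stood at 135, arginine's C03A3.t1 at 131, isoleucine's C02B4.t1 at 129.8, asparagine's F41D9.t3 at 111 and serine's C53C7.t2 at 108. Histidine's strongest was C06G1.t1, at 98.0.

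**Figure D3:**
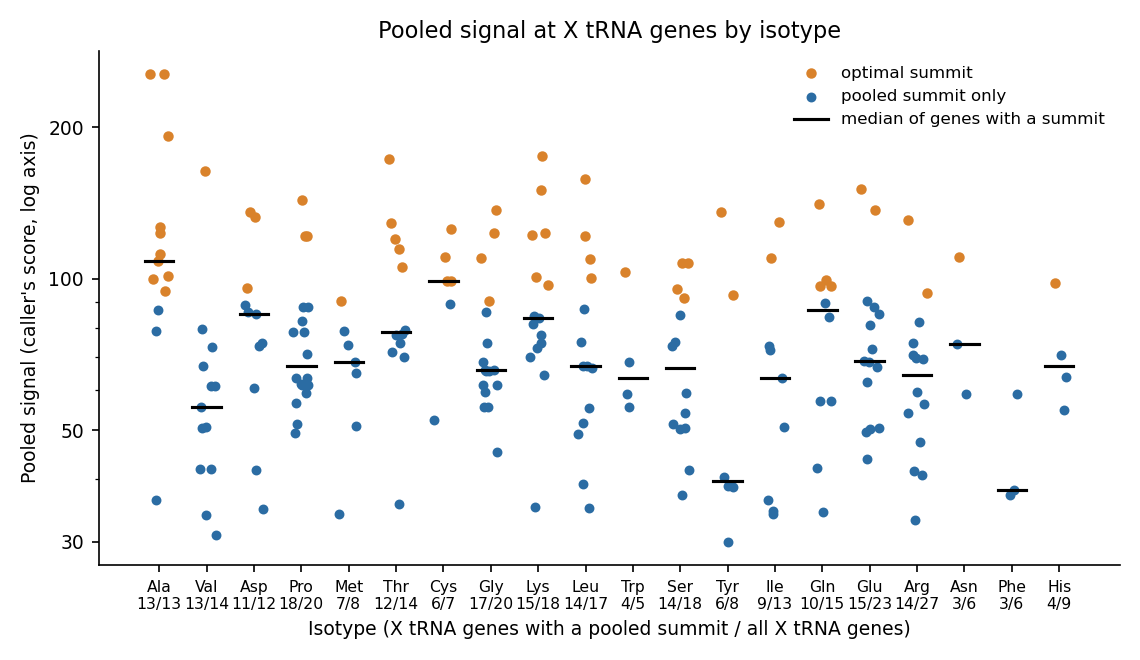
Pooled signal (log axis, caller's score) of each X tRNA gene with a summit, by isotype in falling order of the share with a summit, which is printed under each name. Black bars are medians and orange points are genes with an optimal summit. Alanine has all 13 genes with a summit and 10 in the optimal list, and phenylalanine 3 of 6 and none.

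The arginine genes were split by their copies. A gene was called single copy if no other annotated nuclear tRNA gene had the same sequence, compared without introns. Copies that are not annotated as tRNA genes were not counted. Of 8 single-copy arginine genes on X, 1 had a pooled summit, and of 19 with identical copies, 13 did. The split was narrower in replicate 1, with 5 of 8 and 13 of 19, and in replicate 2 it was 2 of 8 and 13 of 19. On the autosomes 15 of 17 arginine genes had a pooled summit. Over all isotypes, 34 of 53 single-copy genes on X had a pooled summit (64.2%, 49.8 to 76.9) and 3 were in the optimal list. Genes with 2 to 5 copies had 26 of 32 (81.2%, 63.6 to 92.8), those with 6 to 15 copies 95 of 120 (79.2%, 70.8 to 86.0) and those with 16 or more 55 of 71 (77.5%, 66.0 to 86.5). Without arginine, 33 of 45 single-copy genes and 163 of 204 genes with copies had a pooled summit, and 3 and 55 were in the optimal list. On the autosomes 46 of 77 single-copy genes had a summit (59.7%, 47.9 to 70.8).

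A shared gene sequence did not mean a shared call. Compared without introns, the 276 genes held 104 distinct sequences, and 20 of these occurred at least 5 times on X. In 2 of the 20, an alanine sequence with 7 copies on X and a lysine sequence with 5, every X copy had a pooled summit. In the other 18 some copies had a summit and some had none. The lowest share was 3 of 8 for a histidine sequence. The threonine sequence of F43E12.t1 and R04D3.t1 had a summit at 5 of 7 X copies, the strongest being ZK563.t1 at 77.5 in the pooled list. Reads from identical copies cannot be told apart over the gene itself. The share of 36-base words that occur once in the genome, over 200 bp on either side of the start, was 86.3% at the median X gene, so the flanks were mostly distinct. None of the 6 genes with 50% or less unique words had a summit in any list, with an exact upper bound of 45.9%. Genes with over 80% unique words had a pooled summit in 191 of 238 cases (80.3%, 74.6 to 85.1), and those between in 19 of 32 (59.4%, 40.6 to 76.3). Autosomal tRNA genes with 50% or less unique words did have pooled summits, in 5 of 14 cases (35.7%, 12.8 to 64.9). The autosomal counts were 214 of 275 with over 80% unique words and 28 of 47 between.

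On X the share with a summit was 87.6% for tRNA genes with no other tRNA gene near them and 63.4% for clustered ones. A cluster was a chain of tRNA genes whose starts were at most 1000 bp apart. Of 145 lone genes, 127 had a pooled summit (interval 81.1 to 92.5), and of 131 genes in 53 clusters, 83 did (54.5 to 71.6). The counts were 122 and 81 in replicate 1, and 121 and 79 in replicate 2. By size the share was 71.8% in clusters of 2 (56 of 78, 60.5 to 81.4). It was 55.6% in clusters of 3 (15 of 27, 35.3 to 74.5) and 46.2% in clusters of 4 to 6 (12 of 26, 26.6 to 66.6). The intervals of these sizes overlapped. In the same order the counts were 54, 15 and 12 in replicate 1, and 51, 18 and 10 in replicate 2. In replicate 2 the share was thus not lower in clusters of 3 than in clusters of 2. The intervals of lone and clustered genes did not overlap. With starts up to 5000 bp apart joined into clusters, the gap narrowed to 85.6% (77.0 to 91.9) for 97 lone and 70.9% (63.7 to 77.5) for 179 clustered genes, whose intervals overlapped. No test was made, since genes of a cluster are not independent.

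The same data were also counted by place instead of by gene. Of the 53 clusters, 45 had a summit at 1 gene or more (84.9%), and of all 198 places, lone or clustered, 172 did (86.9%). A cluster was searched in the windows of all its genes and a lone gene in 1 window, so their shares by place are unlike measures. Among the 39 clusters of 2, both genes had a summit in 23, of which 14 shared it, and 10 had a summit at 1 gene alone. Uniqueness of the surroundings was held alike in a further count. Among genes with over 80% unique words, 125 of 141 lone genes had a summit (88.7%, 82.2 to 93.4) and 66 of 97 clustered genes (68.0%, 57.8 to 77.1). Single-copy genes had a summit in 16 of 26 lone and 18 of 27 clustered cases, and genes with copies in 111 of 119 and 65 of 104.

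On the autosomes the shares were 73.0% for lone genes (173 of 237, 66.9 to 78.5) and 74.7% for clustered genes (74 of 99, 65.0 to 82.9). Whether the arrangement matters differently on X was not tested.

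**Figure D4:**
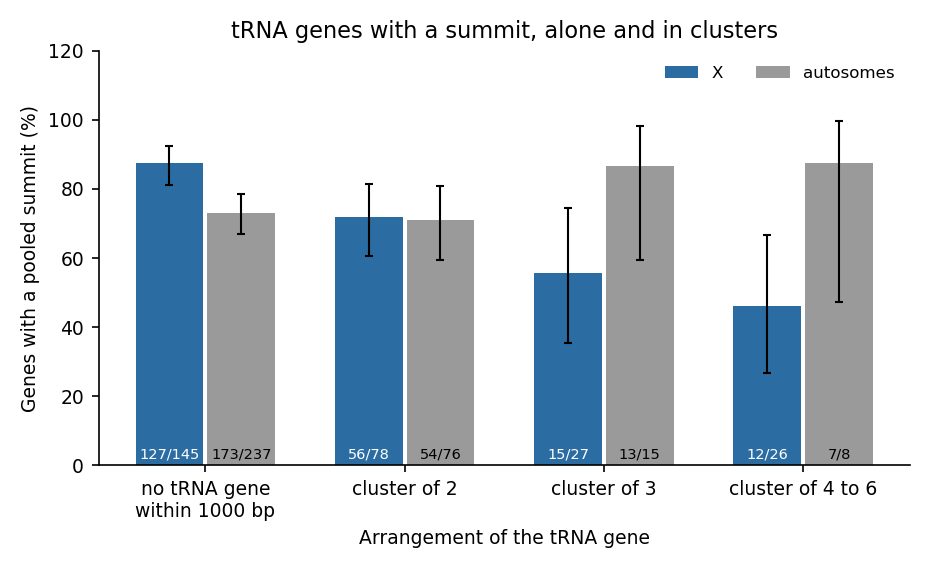
Share of tRNA genes with a pooled summit, on X (blue) and on the autosomes (grey), for genes with no other tRNA gene start within 1000 bp and for clusters by size, with exact 95% intervals and counts on the bars. On X the share is 87.6% for lone genes and 46.2% in clusters of 4 to 6 (12 of 26, 26.6 to 66.6). On the autosomes it is 73.0% and 87.5%, the latter in 8 genes (7 of 8, 47.3 to 99.7). The intervals of X and of the autosomes in clusters of 4 to 6 overlap.

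The largest clusters differed from each other. At F22F1, 6 genes for serine, aspartate, methionine and isoleucine within 2263 bp had 5 genes with a summit, at 4 distinct summits of up to 95.7 in the pooled list. At F28H6, 6 histidine genes within 1966 bp had a summit at F28H6.t2 alone, at 70.4 in the pooled list, with 36.1 in replicate 1 and 29.2 in replicate 2. Between them these histidine genes included some whose windows held no unique word of 36 bases at all. The read length is unknown, and the part of repeated sequence in the missing summits was not tested. The 5 glutamine genes within 1002 bp in ajm-1 had 2 summits, and the 4 tyrosine genes at R11 had 2. The 3 isoleucine genes in wrt-9, a gene of the warthog family of hedgehog-related proteins, had no summit in any list, although at least 85% of the words in their windows were unique.

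Genes inside introns and genes between coding genes had overlapping shares. Of 95 X tRNA genes inside an intron of a coding gene, 77 had a pooled summit (81.1%, 71.7 to 88.4), with a median signal of 69.1. Of 180 between genes, 132 did (73.3%, 66.2 to 79.6), with a median of 73.5. In introns the share was 80% for 50 genes on the strand of the host and 82.2% for 45 on the other strand. Among lone genes the counts were 56 of 61 in introns and 70 of 83 between genes. The 30 genes with a coding start within 500 bp had a summit in 21 cases (70%, 50.6 to 85.3), against 189 of 246 farther away (76.8%, 71.0 to 82.0), with overlapping intervals. On the autosomes the shares were 77.2% and 72.1%. Cut into 3 stretches of equal length, X had, in order, 40 of 51, 82 of 107 and 88 of 118 genes with a summit.

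The word GAGAGA stood beside 45% of the X tRNA genes with an optimal summit and 9.09% of those with no pooled summit, a difference that was not tested. It was searched on both strands (as GAGAGA or TCTCTC) in the bases within 200 bp of the start that lie outside the gene. It was found at 27 of 60 X genes with an optimal summit (interval 32.1 to 58.4), at 37 of 150 with a pooled but no optimal summit (24.7%, 18.0 to 32.4) and at 6 of 66 with no pooled summit (3.41 to 18.7). The autosomal tRNA genes gave 26 of 55 with an optimal summit (47.3%, 33.7 to 61.2) and 15 of 89 without a pooled summit (16.9%, 9.75 to 26.3). Within windows of the same length at 29773 starts of protein-coding transcripts, the word was found in 24.9%. Over whole windows, the gene included, it was found at 27.9% of X and 31.5% of autosomal tRNA genes.

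In stretches of 200 bp on X, the word lay before the start of 62 of the 276 genes (22.5%) and after the end of 13 (4.71%). It was before the start at 26 of 60 genes with an optimal summit (43.3%) and at 4 of 66 without a pooled summit (6.06%). The nearest such word was a median of 50.5 bp from the start. Genes with the word before the start had a median summit position of 13.5 bp after the start, and genes without it 27.5 bp. The word was before the start of 37 of 127 lone genes with a pooled summit and 1 of 18 without, and of 21 of 83 and 3 of 48 clustered genes. These are descriptions of short words in the windows, and a match is not a binding site.

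**Figure D5:**
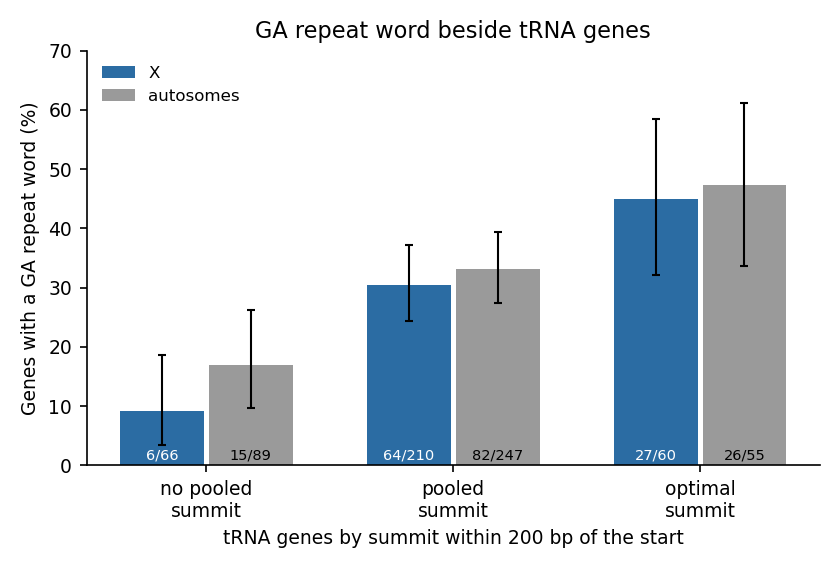
Share of tRNA genes on X (blue) and on the autosomes (grey) with the GA repeat word on either strand outside the gene and within 200 bp of its start, by summit, with exact 95% intervals and counts on the bars; genes with an optimal summit are also among those with a pooled summit. On X the share is 9.09% without a pooled summit, 30.5% with a pooled and 45% with an optimal summit.

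The GC box core GGGCGG, a word that mammalian Sp proteins bind, was rare beside the genes. Outside the gene it was found at 10 of 276 X genes (3.62%), at 4 of the 66 without a pooled summit (6.06%, 1.68 to 14.8) and at none of the 60 with an optimal summit, with an exact upper bound of 5.96%. These intervals overlap. On the autosomes it was found at 5 of 55 genes with an optimal summit (9.09%, 3.02 to 20) and 4 of 89 without a pooled summit (4.49%, 1.24 to 11.1), the other order. In whole windows on X it was found at 12.9% of genes with and 9.09% of genes without a pooled summit. In whole windows, the gene included, it was found at 33 of 276 X tRNA genes, at 15.2% of autosomal tRNA genes and 8.78% of protein-coding starts. The related word CACCC, outside the gene, was found at 20 of 60 genes with an optimal summit (33.3%, 21.7 to 46.7), at 21 of 150 with a pooled but no optimal summit (14%, 8.88 to 20.6) and at 17 of 66 without a pooled summit (25.8%, 15.8 to 38.0). It was found in whole windows at 36.2% of X tRNA genes, 40.2% of autosomal ones and 24.3% of protein-coding starts. Both words were searched on either strand, and none of the words searched contains another.

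The promoter words inside the gene were found on its own strand with and without a summit. They are strict forms, so the shares below count the words and not the boxes. The A box core was in 78 of 210 genes with a pooled summit (37.1%, 30.6 to 44.1) and 17 of 66 without (25.8%, 15.8 to 38.0), and the B box core in 128 (61.0%, 54.0 to 67.6) and 49 (74.2%, 62.0 to 84.2). In the 60 genes with an optimal summit the A box core was in 31 (51.7%, 38.4 to 64.8) and the B box core in 30 (50%, 36.8 to 63.2), so from no summit to an optimal one the share was larger for the A box word and smaller for the B box word. The intervals of the ends overlapped narrowly for the B box and not for the A box, and neither difference was tested. On the autosomes the A box core was in 38 of 55 genes with an optimal summit (69.1%) and 23 of 89 without a pooled one (25.8%), and the B box core in 31 (56.4%) and 54 (60.7%). Genes of the same sequence and isotype share these words, and the part of isotype in the differences was not tested. Over all autosomal tRNA genes the words were in 36.9% and 64.9%. Windows at protein-coding starts held the A box core in 4.48% and the B box core in 2.36%, on either strand. A run TTTT stood within 30 bases after the end of 273 of the 276 X genes (98.9%) and of 98.8% of autosomal ones, and within the first 30 bases after the start of 24.4% of protein-coding genes. It was there for 209 of 210 genes with a pooled summit and 64 of 66 without. The words of the tRNA promoter and the run of T were thus found with and without a summit.

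Of a list of 10 protein genes of the RNA polymerase III machinery and of tRNA maturation, 3 had a pooled summit within 200 bp of a transcript start. Over all genes, counted at the gene start, it was 14.3%. These were rpc-1 (pooled signal 37.6, replicate 2 24.8) and rpc-2 (56.9 and 42.8), which encode subunits of the polymerase, and hoe-1 (34.9 and 20.2), for the enzyme that trims the 3′ end of tRNA precursors. None of these had a summit in replicate 1. The TFIIIC genes tftc-1, tftc-3 and tftc-5, the TFIIIB genes brf-1 and tbp-1 and the repressor gene mafr-1 had none in any list, and rpc-11 had a weak summit in replicate 1 alone (17.2). Among RNA genes that polymerase III transcribes, rpr-1, for the RNA of RNase P that trims the 5′ end of tRNA precursors, had a pooled signal of 362 (rank 6), with 210.3 in replicate 1 (rank 4) and 151 in replicate 2 (rank 7). Of 16 5S rRNA genes, which are near-identical repeats, 1 had a pooled summit.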

How the data were processed

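Peak lists of the pooled replicates, of each replicate and an optimal list were used as deposited, on assembly ce11. Per the deposited file descriptions, each list was made with a control alignment, and the optimal list was thresholded by the irreproducible discovery rate from the replicate and pooled lists. Which aligner and caller were used, and with what settings, is not given in the sources used here; read depth and length are likewise unknown. The deposited signal is a score on the caller's scale, and the summit, as deposited, counts bp from the start of its peak. The pooled and replicate lists each hold 30000 peaks, and the optimal peaks are the strongest of the pooled list. Reads from near-identical tRNA copies could have been discarded or assigned arbitrarily, which makes single genes uncertain.

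Genes came from Ensembl release 115, and isotypes and sequences from RefSeq. Each gene took the strongest summit within 200 bp of its start. Genes named are the 12 strongest by pooled signal, the 3 weakest, the strongest of each isotype with 5 or more X genes, and the sequences by the strongest 4 summits with 3 members without one. Intervals are Clopper-Pearson at 95%. With 1 group and 2 replicates no test was made. The labels number the replicates as biological replicates without saying how cultures were kept apart. Members, lists, words and groupings were chosen with earlier results of these data known. The assignment was tested on simulated data, with Python 3.11.15, numpy 2.4.6, scipy 1.17.1, pandas 2.3.3 and matplotlib 3.10.9. Alternatives were windows, list lengths, cluster distances, unique surroundings and each replicate alone.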

Additional observations from a re-analysis of the deposited data

How the results depend on the processing

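No paired analysis was possible because there is 1 group. Of 145 alternatives, 121 stayed within 1.5 times a count or within the interval of a share or median. These were 74 of 80 for single isotypes, whose intervals are wide enough that few shares could leave them, and 47 of 65 for all other results. A sign could change only for the median position, which stayed after the start in each alternative. Leaving out the 6 genes with 50% or less unique words could not change the count with a pooled summit, since none had one. The count with a pooled summit ran from 200 to 203 in either replicate alone. With the strongest 5000 peaks of each list 94 genes had a summit in both replicates, and with as many as the optimal list holds 32, in place of 177. In windows of 100 and 500 bp the X share was 63.4% and 87.0%, the autosomal share 60.4% and 81.8%, the intron share 66.3% and 92.6% and the share between genes 61.7% and 83.9%. In the strongest 5000 pooled peaks the X and autosomal shares were 60.1% and 52.4%. In either replicate alone the autosomal share ran from 67.6% to 70.5%, the X share from 72.5% to 73.6%, the median signal, on each list's own scale, from 33.7 to 41.7, and the median position from 11 to 23 bp. In the same lists the intron share ran from 78.9% to 80%, the share between genes from 68.3% to 70.6%, the lone share from 83.4% to 84.1% and the clustered share from 60.3% to 61.8%. With clusters joined at 500 or 5000 bp the lone share was 83.1% or 85.6% and the clustered share 63.6% or 70.9%. The replicate correlation was 0.49 over distinct pairs of summits and 0.47 by ranks. For single isotypes, 6 of 80 alternatives moved a share out of its interval, all but 1 of them by a change of window. The alternatives on unique surroundings, on lone and clustered genes by replicate and on the GAGAGA word were chosen after seeing the data; taking as many of the strongest peaks of a replicate in place of the optimal list gave that word at 40.7% to 47.3% of X genes, against 45%. Depth is unknown, so no missing summit can be weighed by reads.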

Other observations

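The 95 X tRNA genes in introns lay in 67 host genes, 51 of which held 1 tRNA gene. The genes ajm-1 and K01A12.3 held 5 each, and in both the tRNA genes with a pooled summit numbered 2. Beside him-4, hosts with a tRNA gene in the optimal list included egl-17, which encodes a fibroblast growth factor, where the aspartate gene F38G1.t2 had a pooled signal of 133. They also included lev-9, whose product gathers acetylcholine receptors at synapses, where the alanine gene T07H6.t1 stood at 127. In cat-1, the vesicular monoamine transporter gene, both serine genes had a summit, the stronger at 95.5. These hosts were picked for their known functions after the values were seen, and no pattern among host functions was tested.

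Of 12 X tRNA genes that contain an intron of their own, 10 had a pooled summit (83.3%, 51.6 to 97.9) and 4 an optimal summit. The counts were 8 in replicate 1 and 7 in replicate 2. Genes on the plus and minus strands of X had nearly the same share, with 104 of 136 and 106 of 140.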
